A study of Homo sapiens with 4 samples.

Results

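The genes described here are 45 members of the ZNF series, human genes whose symbols begin with ZNF and a number, measured in LNCaP cells, a human prostate cancer cell line that depends on androgen. They were chosen by name: every probe set with a single gene symbol of that form was taken, pseudogene transcripts were left out, and the probe set of highest mean signal stood for its gene. The rule found 50 probe sets and 49 symbols, of which 4 symbols on 5 probe sets were pseudogenes, and left 45 of the 2256 genes that the table names by a single symbol. Each of the 45 had 1 probe set. The study asked how the loss of POTEF-AS1, an antisense long noncoding RNA, alters gene expression under androgen. All cells were grown in RPMI 1640 with 10% fetal bovine serum, then moved for 3 days to RPMI 1640 lacking phenol red, with 2.5% charcoal/dextran-treated serum, and all were transfected with an siRNA 48 h before hormone. The 4 groups were siControl with ethanol vehicle, siControl with 10 nM dihydrotestosterone (DHT), siPOTEF-AS1 with vehicle and siPOTEF-AS1 with 10 nM DHT, and each group was 1 array.

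Most ZNF genes encode C2H2 zinc finger proteins, in which tandem fingers, each folded around a zinc ion, read DNA a few bases at a time. Many also carry a KRAB domain, which recruits the corepressor TRIM28 and with it histone methylation, and KRAB zinc finger proteins are best known for silencing transposable elements. Their genes multiplied by local duplication and lie in dense clusters, most of all on chromosome 19, so that neighbours are often close relatives. In prostate cancer cells DHT acts through the androgen receptor, itself a zinc finger protein of the unrelated nuclear receptor class.

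The table's annotation bore out the name for most of the genes. Zinc ion binding was annotated for 44 of the 45 and DNA binding for 42. The exception to zinc binding was ZNF503-AS2, which RefSeq lists as a long noncoding RNA: it takes its symbol from the gene it lies beside and encodes no zinc finger protein. ZNF724P bears a pseudogene-style symbol in the table, but its current symbol is ZNF724 and RefSeq lists it as protein coding. On chromosome 19 lay 22 of the 45 genes (48.9%), against 124 of the 1818 named genes with a RefSeq chromosome (6.82%).

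Values are RMA log2 signals, so that a difference of 1 is a doubling, and levels of different probe sets cannot be ranked as amounts of RNA. Array medians ran from 6.72 to 6.77, and the 4 arrays correlated at 0.988 to 0.995 over probe sets. The knockdown could not be checked on these arrays, because no probe set carried the name POTEF-AS1. Of 18 cell type marker genes looked for, the table named only KRT5, a basal keratin, whose log2 signals were 6.57, 6.53, 5.98 and 6.47 in the order of the groups above, so that the LNCaP label was not checked either. A gene was called bright if its mean over the 4 arrays reached 6.53, the median signal across the named genes and arrays. By that floor 35 of the 45 ZNF genes were bright (77.8%), against 1100 of the other 2211 named genes (49.8%). The 10 dim genes were ZNF22, ZNF23, ZNF157, ZNF226, ZNF285, ZNF362, ZNF366, ZNF486, ZNF503 and ZNF565. ZNF366, known as DC-SCRIPT from dendritic cells, gave 5.37 to 5.66, and ZNF503, a corepressor gene of development, gave 5.49 to 5.70.

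Of the ZNF genes with the highest signals, some were nearly level over the 4 arrays. ZNF808, a primate-specific KRAB zinc finger gene on chromosome 19 (53030906–53059589, plus strand, GRCh37), gave 10.18 in siControl vehicle, 10.26 in siControl DHT, 10.31 in siPOTEF-AS1 vehicle and 10.23 in siPOTEF-AS1 DHT. ZNF664 gave 9.56, 9.63, 9.55 and 9.58 in the same order, and ZNF142 gave 8.83, 8.87, 8.87 and 8.89. Their ranges over the arrays were 0.13, 0.08 and 0.06. ZNF507, a gene of chromosome 19 (32836625–32874160, plus strand, GRCh37), gave 9.25, 9.26, 9.33 and 9.09, with the siPOTEF-AS1 DHT array lowest. ZNF101 gave 8.95, 9.07, 9.13 and 9.13, lowest in siControl vehicle. Over the 35 bright ZNF genes the range between the highest and the lowest array had a median of 0.24 and ran from 0.06 for ZNF142 to 0.97 for ZNF724P. Over the other 1100 bright named genes the median range was 0.29.

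**Figure D1:**
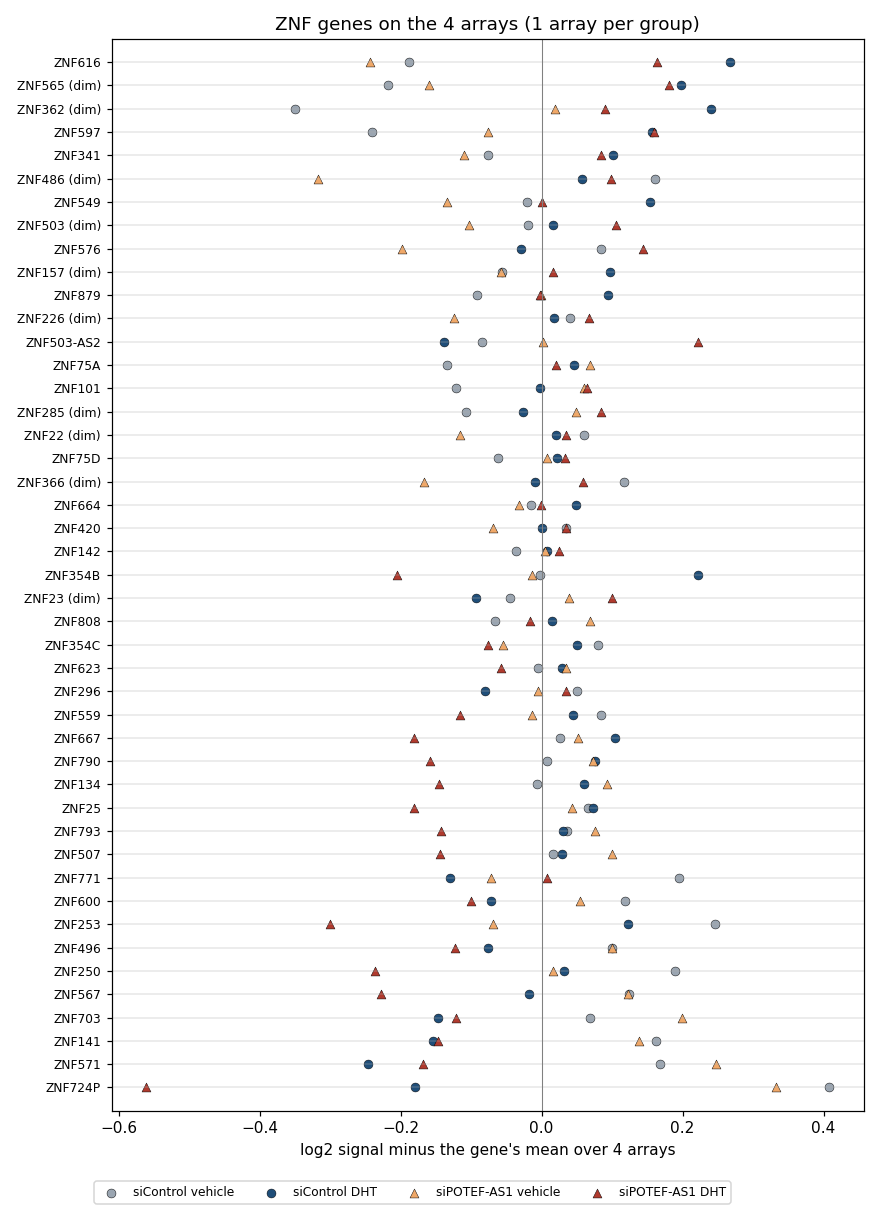
Log2 signal of each of the 45 ZNF genes on each array, less the gene's mean over the 4 arrays (horizontal axis), with genes ordered by their mean DHT difference and 1 point per array; circles are siControl, triangles are siPOTEF-AS1, and "dim" marks the 10 genes under the floor of 6.53. The DHT arrays lie to the left for ZNF724P, ZNF571 and ZNF141 and to the right for ZNF616 and ZNF597, with both siRNAs.

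DHT moved few ZNF genes. ZNF724P fell, with a mean log2 difference of -0.74, or 1.67-fold, ZNF571 fell 1.33-fold and ZNF616 rose 1.35-fold, and no other bright ZNF gene passed the test. That test was limma's additive model of siRNA and hormone, fitted over 14161 bright probe sets with 1 residual degree of freedom. It uses each siRNA arm as a repeat of the other and assumes 1 DHT effect in both. Beside that 1 degree of freedom limma set 5.57 prior ones. Each p-value therefore rests mostly on the spread pooled over the fitted probe sets, and less on the gene's own. The p-values cover only these 4 samples. At an adjusted p under 0.05, 1 of 35 bright ZNF genes was higher with DHT against 6.28% of all probe sets fitted, and 2 of 35 were lower against 7.46%. Neither count was above what that background gives for 35 genes. In bulk RNA such a difference cannot be assigned to fewer cells with the transcript or to less of it per cell, which cannot be told apart.

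ZNF724P, a KRAB zinc finger gene of chromosome 19, was the member that moved most. Its log2 signal was 8.89 in siControl vehicle and 8.31 in siControl DHT, and 8.82 in siPOTEF-AS1 vehicle and 7.92 in siPOTEF-AS1 DHT. Both DHT arrays were below both vehicle arrays. The DHT difference was -0.59 in siControl and -0.89 in siPOTEF-AS1 cells, a mean of -0.74 ± 0.15 (distance of either arm from the mean, n = 2 arms; limma adjusted p = 0.0079). It was the only bright ZNF gene past 1.5-fold in either arm. Close relatives of ZNF724P are many, and whether their RNA adds to its probe set was not tested. At 1.5-fold or more, 0 of 35 bright ZNF genes were higher with DHT and 1 was lower in siControl cells, where 3.00% of the 1135 bright named genes were higher and 3.00% lower. In siPOTEF-AS1 cells 0 of 35 were higher and 1 was lower, against 3.52% and 3.88%. The siControl difference of ZNF724P sat at the 1.5-fold line and missed it after median centring of the arrays and after removal of the trend of differences with signal.

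ZNF571, a KRAB zinc finger gene in a cluster of chromosome 19, showed nearly the same DHT difference with both siRNAs. Its signals were 7.63 and 7.21 in siControl vehicle and DHT, and 7.71 and 7.29 in siPOTEF-AS1 vehicle and DHT. The differences were -0.41 and -0.42, a mean of -0.42 ± 0.00 (n = 2 arms; limma adjusted p = 0.0315). ZNF616, a KRAB zinc finger gene that shares a cluster with ZNF808 and ZNF600, went the other way. It gave 7.40 in siControl vehicle, 7.85 in siControl DHT, 7.34 in siPOTEF-AS1 vehicle and 7.75 in siPOTEF-AS1 DHT, with both DHT arrays above both vehicle arrays. The differences were 0.46 and 0.41, a mean of 0.43 ± 0.02 (n = 2 arms; limma adjusted p = 0.0283). The calls of ZNF571 and ZNF616 did not hold in a fit over the named genes alone (limma adjusted p = 0.0722 and 0.0664) or with dim probe sets kept (limma adjusted p = 0.123 and 0.114), while ZNF724P passed in every fit tried.

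A second tier of 4 genes had an unadjusted limma p under 0.05 but missed the adjusted threshold. ZNF141, a KRAB zinc finger gene of chromosome 4, gave 9.36 and 9.04 in siControl vehicle and DHT and 9.33 and 9.05 in siPOTEF-AS1 vehicle and DHT, a mean DHT difference of -0.30 ± 0.01 (n = 2 arms; limma adjusted p = 0.0842). ZNF597, a maternally expressed imprinted gene on chromosome 16 (3486104–3493542, minus strand, GRCh37), gave 8.38 and 8.78 in siControl and 8.55 and 8.78 in siPOTEF-AS1 cells, a mean of 0.32 ± 0.08 (n = 2 arms; limma adjusted p = 0.0842). In neither gene did the DHT arrays overlap the vehicle arrays, which was also so in genes of smaller difference such as ZNF341 and ZNF496. ZNF703, a corepressor gene of the NET family amplified in luminal breast cancer, gave 8.49 and 8.27 in siControl and 8.62 and 8.30 in siPOTEF-AS1 cells, a mean of -0.27 ± 0.05 (n = 2 arms; limma adjusted p = 0.121). ZNF567 gave 6.76 and 6.62 in siControl and 6.76 and 6.41 in siPOTEF-AS1 cells (limma adjusted p = 0.169). Together with ZNF724P, ZNF571 and ZNF616, these 4 made up the 7 bright ZNF genes that had an unadjusted limma p under 0.05, 2 with a higher and 5 with a lower signal under DHT. These 7 were 20% of the 35, against 28.5% of all probe sets fitted.

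Smaller differences of 1 sign in both arms were measured in several other genes. ZNF250 gave 7.93 and 7.77 in siControl vehicle and DHT and 7.76 and 7.50 in siPOTEF-AS1 vehicle and DHT, a mean of -0.20 ± 0.05. ZNF496, whose protein carries SCAN and KRAB domains, lies on chromosome 1 (247460714–247495045, minus strand, GRCh37) and gave 7.68 and 7.50 in siControl and 7.68 and 7.46 in siPOTEF-AS1 cells, a mean of -0.20 ± 0.02. ZNF341, which regulates transcription of STAT3 and is mutated in an inherited immune deficiency, gave 7.45 and 7.63 in siControl and 7.42 and 7.61 in siPOTEF-AS1 cells, a mean of 0.19 ± 0.01. None of these 3 passed the test (limma adjusted p = 0.213, 0.217 and 0.245). ZNF549, on chromosome 19 (58038761–58052244, plus strand, GRCh37), had a mean of 0.15 ± 0.02 (n = 2 arms; limma adjusted p = 0.329), and ZNF253 a mean of -0.18 ± 0.05 (n = 2 arms; limma adjusted p = 0.277). The next highest by mean were ZNF101 at 0.06 and ZNF75D, ZNF664 and ZNF142 at 0.05, 0.05 and 0.03. The sign of these 4 in siPOTEF-AS1 cells turned under at least 1 other scaling of the arrays.

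Some of the other bright genes were nearly level with DHT, while others differed between the siRNA arms. ZNF75A gave 7.26, 7.44, 7.46 and 7.41 in siControl vehicle, siControl DHT, siPOTEF-AS1 vehicle and siPOTEF-AS1 DHT, and its relative ZNF75D, a SCAN and KRAB gene of the X chromosome, gave 7.63, 7.71, 7.70 and 7.72. ZNF75A was lowest in siControl vehicle and near level on the other 3 arrays. ZNF879 gave 7.68, 7.86, 7.77 and 7.77, highest in siControl DHT, with no DHT difference in siPOTEF-AS1 cells. ZNF623 gave 8.81, 8.84, 8.85 and 8.76, a range of 0.09. ZNF296, a chromosome 19 gene (45574758–45579846, minus strand, GRCh37) known from pluripotent cells, gave 8.55, 8.42, 8.49 and 8.53. None of these 5 had a limma adjusted p for DHT under 0.5, the lowest being 0.596 for ZNF879.

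As a group the ZNF genes showed no common DHT direction. In siControl cells 18 of the 35 bright genes were higher and 17 lower, with a median difference of 0.01 against -0.03 over the 1135 bright named genes. Under siPOTEF-AS1 the 35 divided into 13 higher and 22 lower, their median being -0.09 against -0.00. The direction agreed between the arms in 20 genes, 8 higher and 12 lower in both, and was opposite in 15. That share of 57.1% compares with 67.8% over the bright named genes. The arms' differences correlated across the 35 genes with a Pearson r of 0.65 and a Spearman rho of 0.48, and across the named genes with 0.75 and 0.53; genes of 1 array share its errors and are not replicates. The median size of the DHT difference, sign left aside, was 0.12 in siControl and 0.22 in siPOTEF-AS1 cells for the ZNF genes and 0.14 and 0.20 for the named genes.

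**Figure D2:**
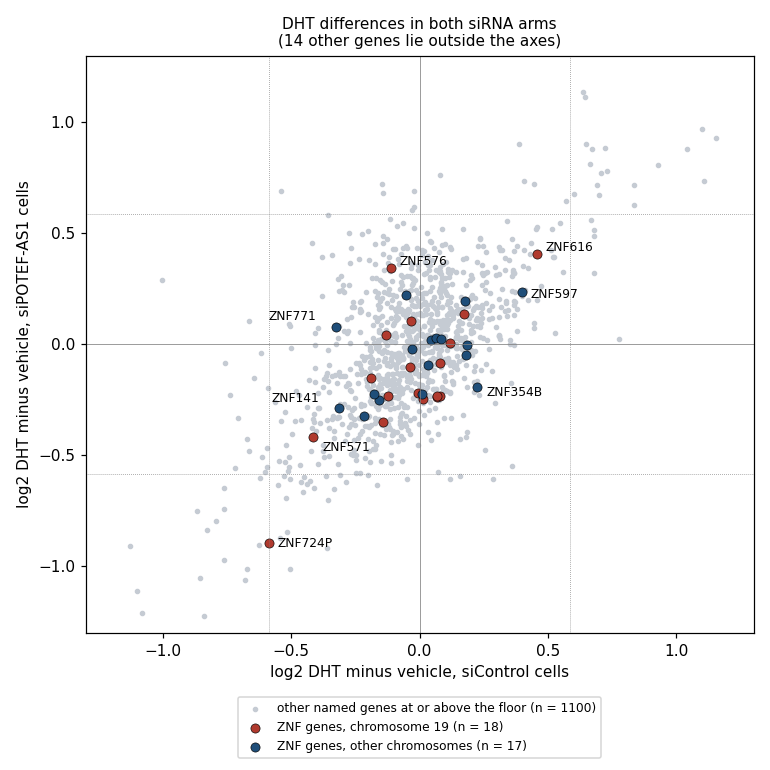
Log2 DHT difference in siControl cells (horizontal) against that in siPOTEF-AS1 cells (vertical), 1 point per bright gene; red are the 18 ZNF genes of chromosome 19, blue the 17 others, grey the other 1100 bright named genes, of which 14 lie outside the axes. Among the ZNF genes ZNF724P lies alone at the lower left, at -0.59 and -0.89, ZNF571 sits at -0.41 and -0.42 and ZNF616 at 0.46 and 0.41, and most ZNF genes cluster about 0.

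The dim ZNF genes are given apart. All 10 were higher with DHT in siPOTEF-AS1 cells, by a median of 0.17, where 63.0% of the 1121 dim named genes were higher, with a median of 0.08. That count depended on the scaling: it was 9 of 10 after median centring, and 6 of 10 after quantile normalization or with the signal trend removed, where ZNF23, ZNF157, ZNF285 and ZNF362 were lower. In siControl cells 5 were higher and 5 lower. ZNF362 gave 4.77 in siControl vehicle, 5.36 in siControl DHT, 5.14 in siPOTEF-AS1 vehicle and 5.21 in siPOTEF-AS1 DHT, so its DHT difference was 0.59 in siControl and 0.07 in siPOTEF-AS1 cells. In siControl cells it was the only dim ZNF gene past 1.5-fold. Of the 1121 dim named genes 18 were higher and 18 lower by that much. ZNF565, which lies in the cluster of ZNF571, gave 5.45, 5.86, 5.51 and 5.85 in the same order, with differences of 0.42 and 0.34, so that both DHT arrays were above both vehicle arrays. The lowest signals of any ZNF gene were those of ZNF22, at 4.40, 4.36, 4.22 and 4.37. ZNF157 gave 5.85, 6.01, 5.85 and 5.93, ZNF226 gave 6.18, 6.15, 6.01 and 6.20, and ZNF285 gave 5.73, 5.81, 5.89 and 5.92. ZNF23, just under the floor, gave 6.38, 6.33, 6.46 and 6.53. Each of these 5 ranged over less than 0.25 across the arrays, and none separated the DHT from the vehicle arrays other than ZNF157.

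The bright genes with the largest mean DHT difference in each direction that had a promoter entry were ZNF724P, which fell, and ZNF616, which rose. Their promoter sequences are shown beside those of the next bright genes with an entry, ZNF141 and ZNF597, which missed the adjusted threshold. Each runs from 250 bases before to 50 bases after the gene's start, on the gene's strand, from RefSeq on GRCh38.p14, where 36 of the 45 genes had an entry and ZNF571 had none. ZNF724 (the current symbol of ZNF724P) lies at chr19:23250345-23250644, minus strand, and ZNF141 at chr4:337564-337863, plus strand. In this pair capitals mark the runs of 10 or more bases that both promoters hold.
ZNF724: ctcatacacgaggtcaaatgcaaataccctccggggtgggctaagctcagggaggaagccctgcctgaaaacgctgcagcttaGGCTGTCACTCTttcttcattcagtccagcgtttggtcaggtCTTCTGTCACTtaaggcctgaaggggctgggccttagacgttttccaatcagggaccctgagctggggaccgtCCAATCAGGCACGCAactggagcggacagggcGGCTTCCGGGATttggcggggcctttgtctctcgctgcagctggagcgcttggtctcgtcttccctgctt
ZNF141: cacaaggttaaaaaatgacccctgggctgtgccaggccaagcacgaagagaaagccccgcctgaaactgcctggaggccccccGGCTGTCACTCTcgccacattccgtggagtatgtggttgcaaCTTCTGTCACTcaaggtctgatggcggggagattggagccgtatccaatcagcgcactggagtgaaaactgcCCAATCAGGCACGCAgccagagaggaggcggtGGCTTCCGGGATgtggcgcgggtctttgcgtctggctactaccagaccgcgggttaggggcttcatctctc
The promoter of ZNF616 lies at chr19:52139889-52140188, minus strand, and its capitals mark CCGGAAG, the core of an ETS factor site. That of ZNF597 lies at chr16:3443455-3443754, minus strand, and its capitals mark CCAAT or its reverse complement.
ZNF616: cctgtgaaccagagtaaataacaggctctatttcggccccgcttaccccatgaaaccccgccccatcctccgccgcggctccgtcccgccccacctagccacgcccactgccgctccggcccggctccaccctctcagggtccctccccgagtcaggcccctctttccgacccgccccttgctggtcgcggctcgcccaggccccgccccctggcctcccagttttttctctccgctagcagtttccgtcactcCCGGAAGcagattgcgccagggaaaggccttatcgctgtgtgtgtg
ZNF597: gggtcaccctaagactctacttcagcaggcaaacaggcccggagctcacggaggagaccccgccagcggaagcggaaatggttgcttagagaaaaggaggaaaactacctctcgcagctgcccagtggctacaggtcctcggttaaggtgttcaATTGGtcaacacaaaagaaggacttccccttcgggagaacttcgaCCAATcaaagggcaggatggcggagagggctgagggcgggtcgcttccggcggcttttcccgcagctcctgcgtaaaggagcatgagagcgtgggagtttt

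The promoters of ZNF724 and ZNF141, on different chromosomes, shared 4 runs that covered 50 bases of each. The longest run, CCAATCAGGCACGCA, was found in 14 of 27305 promoters (0.0513%), and 13 of those 14 belonged to genes with a ZNF symbol, on chromosomes 4, 7 and 19. Among the ZNF genes measured here the longest shared run, of 28 bases, was AGCTCAGGGAGGAAGCCCTGCCTGAAAA in ZNF486 and ZNF724. ZNF486 was dim and gave 5.71, 5.61, 5.23 and 5.65, with DHT differences of -0.10 in siControl and 0.42 in siPOTEF-AS1 cells, which are of opposite sign where those of ZNF724P were both negative. Over all 630 pairs of the 36 promoters the median longest run was 8 bases.

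Motifs were searched on both strands, and were chosen with the values known. The palindromic androgen response element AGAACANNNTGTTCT was found in 0 of 36 ZNF promoters and in 1 of 27305. Its half-site AGAACA was found in 3 of 36 (8.33%), those of ZNF226, ZNF576 and ZNF75A, against 14.9% of all promoters, and in none of the 4 printed above. The CCAAT box was found in 12 of 36 (33.3%) against 35.7%. The ETS core CCGGAAG was found in 15 of 36 (41.7%) against 10.7% of all promoters and 14.2% of those of protein-coding genes. A match is a description of these letters in this window and shows no binding.

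Some C2H2 genes outside the ZNF series changed with DHT. The table named 13, of which 10 were bright and 4 passed the test, 2 higher and 2 lower. Of all probe sets fitted, 6.28% were higher and 7.46% lower. KLF5, a Krüppel-like activator of epithelial growth, was higher by 1.15 in siControl and 0.93 in siPOTEF-AS1 cells (limma adjusted p = 0.00169). ZBTB16, a BTB zinc finger repressor also called PLZF, was higher by 1.14 and 1.45 (limma adjusted p = 0.00101). GLIS2 was lower, with differences of -0.55 and -0.52 (limma adjusted p = 0.0133), and CTCFL, the germline relative of CTCF, was lower as well, with -0.54 and -0.35 (limma adjusted p = 0.0329). The other 6 bright genes, GFI1B, IKZF5, PRDM13, ZBTB46, ZBTB48 and ZBTB6, had mean DHT differences of -0.19 to 0.23 and limma adjusted p of 0.180 to 0.940. Whether these genes and the ZNF genes differ was not tested. Of 38 genes of the KRAB corepressor machinery listed, the table named only SUMO2, which modifies TRIM28 and many other proteins. SUMO2 gave 11.30 and 11.09 in siControl vehicle and DHT and 11.28 and 10.92 in siPOTEF-AS1 vehicle and DHT (limma adjusted p = 0.111).

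Knockdown of POTEF-AS1 changed no ZNF gene past a threshold. At 1.5-fold or more, 0 of 35 bright ZNF genes differed between the siRNAs in vehicle, against 0.881% of bright named genes, and 0 of 35 in DHT, against 1.23%. In limma's additive model 0 of 35 passed, and 0% of the 14161 probe sets did, the smallest adjusted p being 0.230. At an unadjusted limma p under 0.05 there were 788 probe sets (5.56%) and 1 of the 35 bright ZNF genes (2.86%), ZNF253.

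ZNF253, a KRAB zinc finger gene of chromosome 19, had the largest knockdown difference by mean among the bright ZNF genes. Its signals were 9.90 in siControl vehicle and 9.77 in siControl DHT, and 9.58 in siPOTEF-AS1 vehicle and 9.35 in siPOTEF-AS1 DHT. Both siPOTEF-AS1 arrays lay below both siControl arrays. The difference was -0.31 in vehicle and -0.42 in DHT, a mean of -0.37 ± 0.05 (n = 2 treatments), or 1.29-fold lower, and did not pass (limma unadjusted p = 0.00681, adjusted p = 0.606). ZNF250 had a mean of -0.22 ± 0.05, with -0.17 in vehicle and -0.27 in DHT (n = 2 treatments; limma adjusted p = 0.902). The difference of ZNF724P was -0.08 in vehicle and -0.38 in DHT, that of ZNF354B -0.01 and -0.43, and that of ZNF25 -0.02 and -0.25. In these 3 genes the siRNAs were nearly level in vehicle, and the siPOTEF-AS1 DHT array was the lowest of the 4. ZNF549 had a mean of -0.13 ± 0.02 (n = 2 treatments; limma adjusted p = 0.996).

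In the other direction ZNF503-AS2 had the largest mean. ZNF503-AS2, the long noncoding RNA, gave 7.17 and 7.12 in siControl vehicle and DHT and 7.26 and 7.48 in siPOTEF-AS1 vehicle and DHT, a mean knockdown difference of 0.22 ± 0.14 (n = 2 treatments; limma adjusted p = 0.963). Its neighbour ZNF503 was dim, between 5.49 and 5.70. ZNF101 was higher by 0.18 in vehicle and 0.07 in DHT, and ZNF571 by 0.08 in each (limma adjusted p = 0.996 for both). ZNF597, ZNF703 and ZNF75D had means of 0.08, 0.08 and 0.04. As a group, the 35 genes split 17 up and 18 down in vehicle and 12 up and 23 down in DHT, with medians of -0.00 and -0.05 against 0.01 and 0.01 for the bright named genes. The vehicle split turned to 25 higher and 10 lower when arrays were centred on their medians, so it sets no direction. The 2 knockdown differences correlated across the 35 ZNF genes at r = 0.17, and across the named genes at 0.04.

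**Figure D3:**
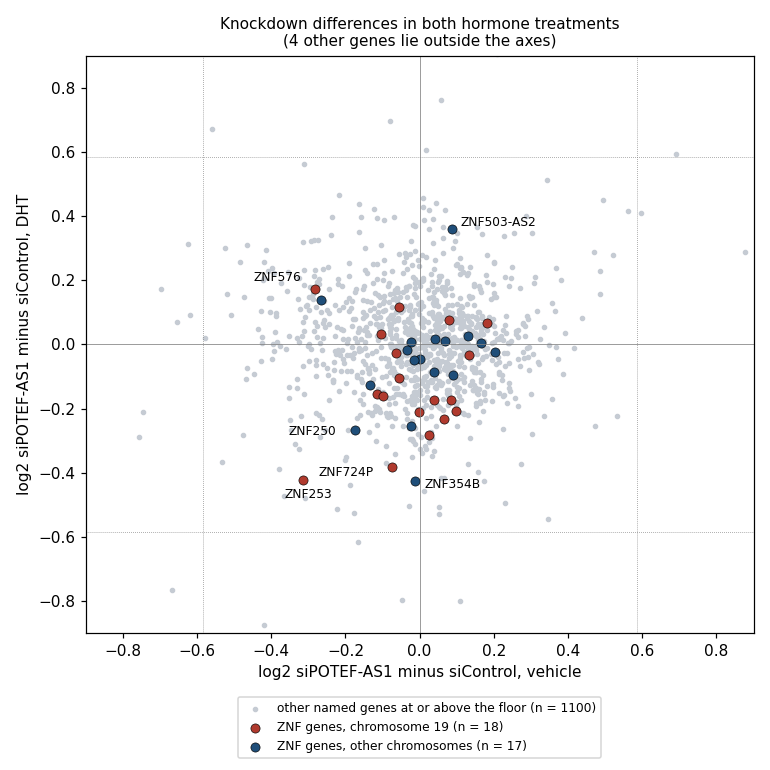
Log2 difference siPOTEF-AS1 minus siControl in vehicle (horizontal) and in DHT (vertical), 1 point per bright gene; red are the 18 ZNF genes of chromosome 19, blue the 17 others, grey the other 1100 bright named genes, of which 4 lie outside the axes. No ZNF gene lies past 1.5-fold (0.58) on either axis, and ZNF253 is the lowest on the horizontal axis at -0.31 with -0.42 on the vertical.

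The DHT response of the bright ZNF genes leaned lower in siPOTEF-AS1 than in siControl cells, with 1 array per group. The difference of the responses, siPOTEF-AS1 minus siControl, was negative in 26 of 35 bright ZNF genes (74.3%) against 50.8% of the bright named genes, with medians of -0.09 and -0.00. The dim ZNF genes did not share this lean: 6 of 10 were positive, against 59.1% of the dim named genes, with medians of 0.14 and 0.08. At 1.5-fold or more 0 of 35 bright ZNF genes differed, against 3.79% of the bright named genes. With 1 array per group this difference has no replicate, and no test could be made of it. Other scalings moved the ZNF and the named genes together: 30 of 35 were negative with arrays centred on their medians, where 63.5% of named genes were, and 24 of 35 after quantile normalization or with the signal trend removed, where 47.2% and 47.1% were. The siPOTEF-AS1 DHT array held the lowest of the 4 signals for 0 of the 10 dim ZNF genes. It did so for 16 of the 35 bright ones (45.7%), against 27.8% of the bright named genes. Whether that belongs to the treatment or to this array cannot be told apart.

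Several ZNF genes were nearly level on 3 arrays and lower on the siPOTEF-AS1 DHT array. ZNF667, on chromosome 19 (56950696–56981424, minus strand, GRCh37), gave 7.12, 7.20 and 7.15 in siControl vehicle, siControl DHT and siPOTEF-AS1 vehicle, and 6.91 in siPOTEF-AS1 DHT. ZNF134 gave 8.97, 9.03 and 9.07 on the same 3 arrays and 8.83 on the last, and ZNF790 gave 7.55, 7.61 and 7.61, and 7.38 on the last. ZNF25, on chromosome 10 (38238500–38265561, minus strand, GRCh37), gave 7.44, 7.45 and 7.42, and then 7.19. The differences of the responses were -0.31, -0.31, -0.30 and -0.23. For ZNF354B they came from opposite arms: it gave 7.10 and 7.32 in siControl vehicle and DHT but 7.09 and 6.90 in siPOTEF-AS1 vehicle and DHT, DHT differences of 0.22 and -0.19. Its relative ZNF354C on the same chromosome, 5 (178487416–178510538, plus strand, GRCh37), gave 7.77, 7.74, 7.64 and 7.62 and showed DHT differences of -0.03 and -0.02.

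A few genes had the opposite sign. ZNF576, on chromosome 19 (44100559–44104522, plus strand, GRCh37), gave 7.47 and 7.35 in siControl vehicle and DHT and 7.18 and 7.53 in siPOTEF-AS1 vehicle and DHT, DHT differences of -0.11 and 0.34. ZNF771, on chromosome 16 (30418618–30430728, plus strand, GRCh37), gave 7.63 and 7.31 in siControl and 7.37 and 7.45 in siPOTEF-AS1 cells, differences of -0.33 and 0.08. In both genes the siPOTEF-AS1 cells had the lower signal in vehicle and the higher one in DHT. ZNF296 had differences of -0.13 and 0.04, and ZNF420, known as APAK for its action on p53, had -0.03 and 0.10, the first of which turned sign under another scaling.

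Neighbouring genes of chromosome 19 shared a direction in some groups and comparisons and not in others. Whether neighbours agree more often than other genes was not tested. The 22 genes fell into 9 groups of neighbours less than 1 Mb apart. The largest group held ZNF420, ZNF565, ZNF567, ZNF571, ZNF790 and ZNF793, and its DHT differences in siControl cells ran from -0.41 for ZNF571 to 0.42 for the dim ZNF565. ZNF793 in the same group gave 7.26, 7.26, 7.30 and 7.08 and was level with DHT in siControl cells. The group of ZNF600, ZNF616 and ZNF808 held a gene that rose with DHT, ZNF616, beside ZNF600, whose DHT differences were -0.19 and -0.15, and ZNF808, whose differences were 0.08 and -0.09. In DHT all 3 were lower with the knockdown, at -0.03 for ZNF600, -0.10 for ZNF616 and -0.03 for ZNF808. Of the bright named genes 47.2% were lower in that comparison. In the group of ZNF226 and ZNF285, both dim, and ZNF296 and ZNF576, all 4 genes were higher with DHT in siPOTEF-AS1 cells. Their differences were 0.19, 0.04, 0.04 and 0.34, and 3 of the 4 were lower in siControl cells. In siPOTEF-AS1 cells 49.7% of the bright and 63.0% of the dim named genes were higher with DHT. The sign of ZNF285 in siPOTEF-AS1 cells and that of ZNF226 in siControl cells turned under other scalings. The difference of ZNF296 in siPOTEF-AS1 cells was 0.003 after median centring. All 4 were also higher with the knockdown in DHT, at 0.05, 0.11, 0.12 and 0.17. So were 52.8% of the bright and 56.8% of the dim named genes. Both differences of these 4 genes use the siPOTEF-AS1 DHT array, so the knockdown result is not independent of the DHT result. ZNF134 and ZNF549, which form a group, were both lower with the knockdown in DHT, at -0.21 and -0.15, against the same 47.2% of bright named genes. ZNF559, alone in its group, gave 8.01, 7.97, 7.91 and 7.81. The median DHT difference of the 18 bright genes on chromosome 19 was -0.02 in siControl and -0.19 in siPOTEF-AS1 cells, against 0.03 and -0.02 for the 17 on other chromosomes. The median knockdown difference was -0.03 in vehicle and -0.16 in DHT on chromosome 19, against 0.00 and -0.03 elsewhere. The medians of -0.19 and -0.16 both use the siPOTEF-AS1 DHT array and are not independent. Whether these medians differ between chromosomes was not tested.

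**Figure D4:**
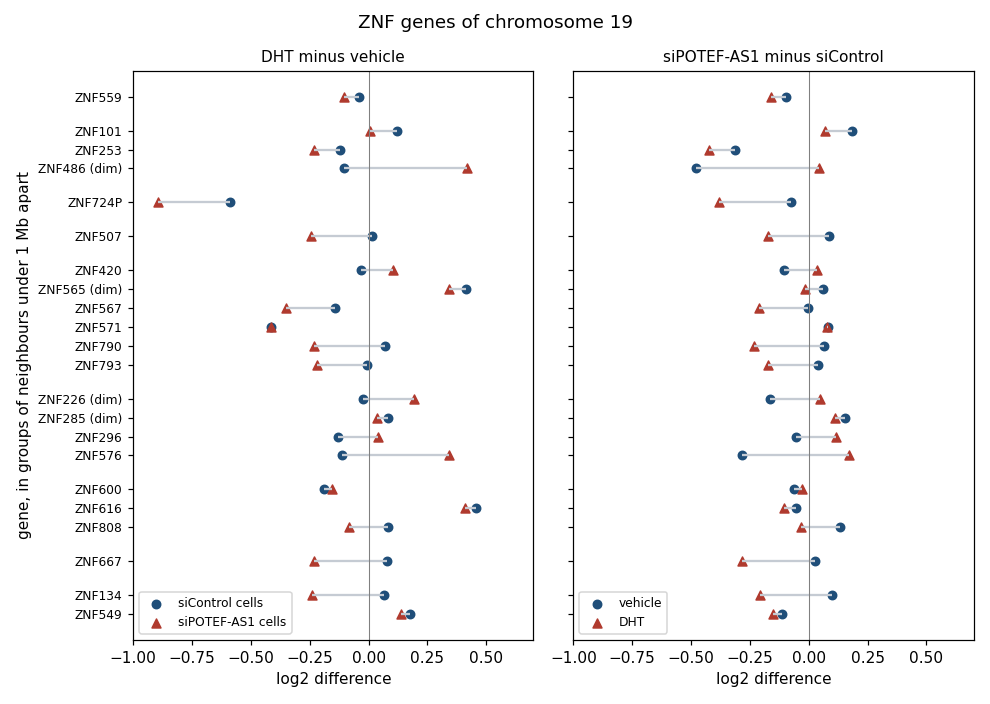
Log2 differences of the 22 ZNF genes of chromosome 19, in groups of neighbours less than 1 Mb apart in chromosome order; left, DHT minus vehicle in siControl (circles) and siPOTEF-AS1 cells (triangles); right, siPOTEF-AS1 minus siControl in vehicle (circles) and DHT (triangles). The group of ZNF571, at -0.41 with DHT in siControl cells, and ZNF565, at 0.42, takes both signs, while the group of ZNF226, ZNF285, ZNF296 and ZNF576 lies above 0 with DHT in siPOTEF-AS1 cells.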

How the data were processed

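Total RNA of LNCaP cells was hybridised to 4 Affymetrix whole-transcript arrays, 1 per group. The deposited values are log2 signals per probe set, which the authors made in Affymetrix Expression Console by RMA (per the submitters' processing notes). RMA brings the arrays to a common distribution, so a change in total RNA per cell is removed, and it compresses differences of dim probe sets. A second deposited table held the same values to within 1.78e-15. Of 33297 probe sets 26722 were annotated and 2540 carried 1 symbol. No scanner intensity or detection call was used here, and precision is limited by having 4 arrays.

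Differences were taken between log2 signals, and called at 1.5-fold because no 2 arrays of a group exist. The additive fit used limma 3.58.1 in R 4.3.3 over 14161 bright annotated probe sets (identical ones counted once), with Benjamini-Hochberg adjustment over all of them, and was tested on simulated data. The genes named are those with the largest mean DHT or knockdown difference of 1 sign in both arms, the largest difference of responses, the highest mean signals, and any past 1.5-fold. Genes named for their position or for lying near these were added after their values were seen. The genes, gene lists and tests were chosen with earlier results of these data known. Groups came from the labels. Alternatives were other scalings (median centring, quantile, signal trend removed), brightness filters, a 2-fold call, the mean over probe sets, named genes only, 1 factor left out, and a prior with an intensity trend. The table's cross-hybridisation column marked 0 of 33297 probe sets, so signal shared between related ZNF genes was not tested. Protein sequences were not analysed here. Promoters came from RefSeq, GRCh38.p14, and gene coordinates, on GRCh37, from the table, which gave them for 19 of the 45 genes.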

Additional observations from a re-analysis of the deposited data

Results flagged for a closer look

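Among the bright ZNF genes, ZNF354B and ZNF576 differed in opposite directions under DHT in the 2 siRNA arms, by at least 0.1 on the log2 scale in each arm. The DHT response of ZNF354B in siPOTEF-AS1 cells less that in siControl cells was -0.42, and that of ZNF576 was 0.46. With 1 array per group neither difference was tested, and both were below 1.5-fold. Of the dim genes, ZNF366 and ZNF486 met the same condition, with DHT differences of -0.13 and 0.23 for ZNF366 and -0.10 and 0.42 for ZNF486 in siControl and siPOTEF-AS1 cells.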

How the results depend on the processing

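None of the 3 ZNF genes called under DHT changed sign under the alternatives tried. Over the 45 genes and 5 comparisons, 38 of 225 single differences changed sign under at least 1 other scaling, the largest of them being 0.07 in size as deposited. Medians near 0 did too: that of the knockdown difference in vehicle went from -0.00 to 0.05 with centring and to 0.04 above the 75th percentile of signal, and that of the DHT difference in siPOTEF-AS1 cells from -0.09 to 0.0048 with no filter. Median centring, removal of the signal trend and a 2-fold call each took the count of bright ZNF genes lower with DHT in siControl cells from 1 to 0, and a 2-fold call did the same in siPOTEF-AS1 cells. Without the brightness filter 1 ZNF gene, ZNF362, was higher in siControl cells, as were 52 of all 2256 named genes. In the limma fit, with no filter or with named genes only, the ZNF genes called under DHT were 0 higher and 1 lower, in place of 1 and 2, ZNF571 and ZNF616 being lost at unaltered log2 changes of -0.42 and 0.43. Over the fits that tested each gene, the limma adjusted p ranged from 6.74e-07 to 0.0440 for ZNF724P. It ranged from 0.0143 to 0.123 for ZNF571 and from 0.00959 to 0.114 for ZNF616. The lowest value of each gene came from median-centred arrays, where limma gave all probe sets 1 common variance. A fit above the 75th percentile of signal, which tested 13 ZNF genes, called 1 higher and 3 lower. Over all its 8414 probe sets that fit called 1087 higher and 1256 lower. ZNF571 and ZNF616 lay under its floor of 8.20. Its calls other than ZNF724P were therefore of genes that missed the threshold in the fit of the Results. A prior with an intensity trend also called 1 higher and 3 lower, among them ZNF724P, ZNF571 and ZNF616. Over all probe sets the DHT calls were 890 higher and 1057 lower, and became 462 and 384 with no filter, 38 and 42 with named genes only, and 1204 and 1645 with the trend prior. Knockdown calls were 0 over all probe sets, and became 93 with centred arrays, 50 above the 75th percentile and 48 with the trend prior, with 0 ZNF genes in each. The causes were not tested. Leaving out an array leaves no residual degree of freedom, so it was not run. Pairing by replicate was not possible, because each group has 1 array and the groups share a single replicate number. For DHT the additive fit is paired by siRNA arm, and the fit with that factor left out is its unpaired form. How far each probe set stood above background could not be measured here.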

Other observations

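Another 6 ZNF genes, on 8 probe sets, were named only in the table's descriptions and are not among the 45. ZNF93, ZNF208 and ZNF257 lie between ZNF253 and ZNF724P in RefSeq's order on chromosome 19, as does ZNF486. ZNF93, a KRAB zinc finger gene known for repressing LINE-1 elements, gave 11.06 and 11.06 in siControl vehicle and DHT and 10.76 and 10.91 in siPOTEF-AS1 vehicle and DHT. ZNF208 gave 10.73, 10.46, 10.41 and 10.37 in that order, and ZNF257 gave 12.21, 11.96, 11.99 and 11.89. The knockdown difference in vehicle was -0.29 for ZNF93, -0.33 for ZNF208 and -0.22 for ZNF257, beside -0.31 for ZNF253, -0.48 for the dim ZNF486 and -0.08 for ZNF724P. In DHT it was -0.15, -0.09 and -0.06, beside -0.42, 0.04 and -0.38. No gene of this region that was fitted passed the limma test of knockdown, which is made over both hormone treatments together. The dim ZNF486 was not in that fit. The region was picked after its values were seen. Whether related genes share signal on these probe sets was not tested.

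ZNF718 and ZNF717 were lower in both DHT arrays. ZNF718 gave 8.22 and 7.91 in siControl vehicle and DHT and 7.97 and 7.67 in siPOTEF-AS1 vehicle and DHT, DHT differences of -0.31 and -0.30 (limma adjusted p = 0.0805). Its knockdown differences were -0.25 in vehicle and -0.24 in DHT (limma adjusted p = 0.876). ZNF717 gave 10.51, 10.29, 10.50 and 10.14, DHT differences of -0.21 and -0.36 (limma adjusted p = 0.107). ZNF668 was dim, with DHT differences of -0.16 in siControl and 0.30 in siPOTEF-AS1 cells.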
